A study of Mus musculus with 6 samples.

Results

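A set of 10 genes that mark hepatic stellate cells, portal fibroblasts and the myofibroblasts they become was followed in the livers of mice in which the peroxidase gene Prdx2 was targeted in hepatocytes. They were taken as the rows of the gene count table that carry their symbols, 10 of 52459 genes. Of these, 3 encode parts of the contractile apparatus (Acta2, Tagln and Myl9) and 7 mark the identity of these cells or their matrix (Des, Pdgfrb, Lrat, Reln, Lum, Dpt and Dcn). All 10 were among the 17032 genes with enough counts to be tested.

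Total RNA from whole liver was sequenced in 6 male C57BL6J mice of 8 months. All 6 were Alb-Cre/Cas9 F1 animals, in which the albumin promoter drives Cre and so switches on Cas9 in hepatocytes and not by design in the cells that the 10 genes mark. At 4 to 5 weeks of age they received an AAV8 vector with either a control guide RNA (sgCTRL, mice 5.1, 7.1 and 7.2) or a guide RNA against Prdx2 (sgPrdx2, mice 1.1, 1.3 and 3.2). Both groups then received 100 mg/kg of the carcinogen diethylnitrosamine (DEN) 3 weeks later and, from 1 week after that, the CDAHFD, a choline-deficient high-fat diet that produces fatty liver with fibrosis, for 6 months. The study notes that some hepatocytes escape the vector, so the targeted livers are mosaics. The comparison asks how genes of the scar-forming cells stand in livers whose hepatocytes carry the Prdx2 guide.

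Hepatic stellate cells lie between hepatocytes and the sinusoids. In a healthy liver they store vitamin A as retinyl esters. After injury they and the fibroblasts of the portal tract can turn into myofibroblasts, which assemble smooth muscle actin into contractile fibres and lay down collagen. Markers of identity, such as desmin or lumican, and markers of contraction, such as smooth muscle actin, are therefore read together. The first tell more of the cells and the second more of their state. The split is not clean, since Lrat, an identity gene here, marks the resting stellate cell. In RNA from whole tissue, fewer cells of a type and less RNA per cell cannot be told apart.

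Total counts were 37462102 to 56865293 per liver, and 3 counts stand for 0.0555 to 0.0921 CPM (counts scaled to a common library size) after normalisation. Levels are given as CPM scaled by edgeR's TMM factors, in the order sgCTRL 5.1, 7.1, 7.2 and sgPrdx2 1.1, 1.3, 3.2. Log2 fold changes are sgPrdx2 minus sgCTRL, and adjusted p-values are from edgeR's quasi-likelihood test over all 17032 genes, with a call at under 0.05. Prdx2 itself was at 109, 117 and 132 CPM in sgCTRL and 99.0, 112 and 149 CPM in sgPrdx2 livers (log2 fold change 0.01, adjusted p = 0.98). A guide that makes small insertions or deletions need not alter the amount of RNA, so this level does not check the labels. Hepatocyte markers differed between the groups: 5 of 8 were called higher in sgPrdx2, where 1.79% of all genes were. The summed level of these markers was 76836 to 81980 CPM in sgCTRL and 130987 to 177631 CPM in sgPrdx2 livers. Liver sgPrdx2 3.2 lay farthest out on the first principal component (61.0, the other sgPrdx2 livers at 10.9 and 19.7, sgCTRL livers at -39.4 to -26.0). Liver sgCTRL 5.1 had the highest levels of some smooth muscle genes but not the highest sum of the smooth muscle contractile list, as given beside Acta2. It did have the highest sum of the vascular smooth muscle and pericyte list.

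None of the 10 genes was called, where 3.33% of all genes tested were (567 genes, 1.54% lower and 1.79% higher in sgPrdx2). At an unadjusted p under 0.05 there were 4, namely Acta2, Tagln, Lum and Dcn, all at lower levels in sgPrdx2, where 24.9% of all genes passed in either direction and 11.9% at lower levels. DESeq2, applied to the same counts without the filter, called Acta2 and Tagln (adjusted p = 0.000428 and 0.0175), with 6 of the 10 at an unadjusted p under 0.05 and 2052 genes called in all. The levels of the groups did not overlap for 5 of the 10 (Acta2, Tagln, Lrat, Lum and Dcn), each with the lower levels in sgPrdx2, where 17.5% of all genes had that pattern. The log2 fold change was below 0 for 8 of the 10, the exceptions being Des and Reln, and for 8802 of the 17032 genes tested. Its median was -0.77 over the 3 contractile genes, -0.19 over the 7 identity genes and -0.02 over all genes. When libraries were scaled by total counts alone, the median over all genes moved to -0.39, all 10 values were below 0, those of Des and Reln included, and the medians were -1.16 for contractile and -0.56 for identity genes.

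**Figure D1:**
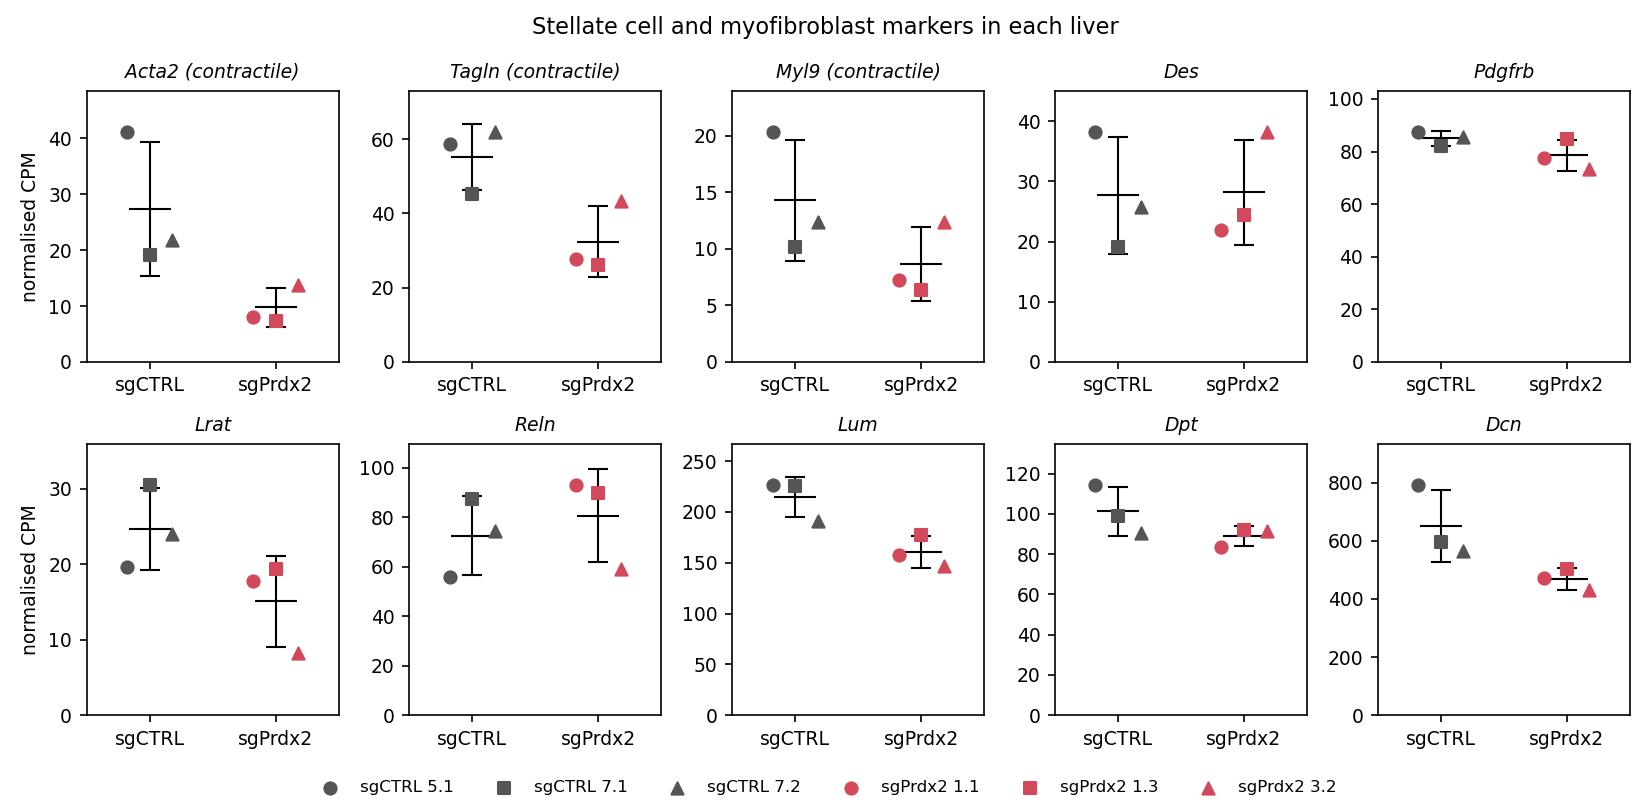
Normalised CPM of each of the 10 genes in each of the 6 livers, with a scale of its own per gene. Points are livers, and bars are group means with their SD. Levels of Acta2 ran from 19.1 to 41.1 CPM in sgCTRL and from 7.36 to 13.8 CPM in sgPrdx2, whereas those of Des, Pdgfrb, Reln and Dpt overlapped between the groups.

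Acta2 encodes smooth muscle alpha-actin, the filament protein by which activated stellate cells are recognised. Its gene lies on the minus strand at chr19:34241090-34255590 (GRCm38). It stood at 41.1, 19.1 and 21.9 CPM in sgCTRL livers (27.4 ± 12.0, SD, n = 3) and at 8.09, 7.36 and 13.8 CPM in sgPrdx2 livers (9.76 ± 3.54, SD, n = 3). Every sgCTRL liver was above every sgPrdx2 liver, and sgCTRL 5.1 was the highest by a wide margin. The log2 fold change was -1.49 (SE 0.35, 95% CI -2.30 to -0.69), a level 2.82-fold higher in sgCTRL, with an adjusted p of 0.0584, just above the threshold. Of all genes tested, 0.517% had a lower log2 fold change. The call turned on single livers: without sgPrdx2 3.2 the value was -1.81 with an adjusted p of 0.0468, and without sgCTRL 5.1 it was -1.08 with an adjusted p of 0.141. With both left out, an alternative chosen after seeing the data, it was -1.41 (adjusted p = 0.0286). The adjusted p also rose without sgCTRL 7.2 (0.157), sgPrdx2 1.1 (0.171) or sgPrdx2 1.3 (0.125). In these fits, and without sgCTRL 5.1, no gene at all was called.

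Some genes of the smooth muscle contractile list, chosen after their values were seen, were far higher in sgCTRL 5.1 than elsewhere. Cnn1, calponin of smooth muscle, was at 9.32 CPM there and at 0.0684 to 0.645 CPM in the other 5 livers. Actg2, the gamma actin of visceral smooth muscle, was at 7.54 CPM and otherwise at 0.137 to 0.756 CPM. Myh11, the myosin heavy chain of smooth muscle, was at 32.5 CPM and otherwise at 3.01 to 7.94 CPM. None was called (adjusted p = 0.125, 0.156 and 0.114). Further genes of the list, also picked after their values were seen, were highest in sgCTRL 5.1. Lmod1 was at 4.36 CPM there and at 1.53 to 1.86 CPM elsewhere, and Synpo2 at 7.93 and 3.53 to 5.05 CPM. Tpm2 was at 21.4 CPM and elsewhere at most 20.1 CPM, and Myocd had 11 counts and elsewhere 0 to 5. Smtn, Mylk and Myl6 did not have their highest level in sgCTRL 5.1. Other genes of the list stood the other way in this liver: Cald1, caldesmon, was at 189 CPM, the lowest of the 6 livers (316 and 249 CPM in the other controls), and Tpm1, a tropomyosin (138 against 144 and 158 CPM), and Vcl, vinculin (58.7 against 74.4 and 59.8 CPM), were the lowest of the controls. The summed level of the list was 1156 CPM in sgCTRL 5.1, the lowest of the controls, which reached 1239 CPM, and 955 to 1000 CPM in sgPrdx2 livers. Genes of high level weigh most in this sum, such as Flna at 312 CPM and Cald1 at 189 CPM in sgCTRL 5.1. The vascular smooth muscle and pericyte list summed to 129 to 179 CPM in sgCTRL and 88.8 to 111 CPM in sgPrdx2 livers, highest in sgCTRL 5.1. Skeletal and cardiac muscle genes summed to no more than 1.73 CPM in any liver (3 tested, none called). Of the 10 markers, Acta2 and Myl9 and the identity genes Des, Pdgfrb, Lum, Dpt and Dcn had their highest sgCTRL level in sgCTRL 5.1, although for Lum and Pdgfrb by little. The part of smooth muscle RNA in the group difference of Acta2 was not tested beyond leaving the liver out, as above.

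Tagln encodes transgelin, an actin-bundling protein of smooth muscle (chr9:45929619-45936058, minus strand). Its level was 58.6, 45.2 and 62.0 CPM in sgCTRL livers (55.3 ± 8.87) and 27.8, 26.1 and 43.4 CPM in sgPrdx2 livers (32.4 ± 9.53). The groups did not overlap, with sgPrdx2 3.2 just under the lowest control. The log2 fold change was -0.77 (SE 0.22, 1.71-fold higher in sgCTRL, adjusted p = 0.0912), and -1.02 without sgPrdx2 3.2, where it was called (adjusted p = 0.0376). At most 67.9% of the exon bases of Tagln also lie in exons of Pcsk7 and Gm48529 on the opposite strand. The overlaps with these genes were added, so a base in both counts for each. Of the 50-base stretches of Tagln, 58.3% are found in these genes. Whether reads were counted by strand is not given in the sources used here, so the count of Tagln is uncertain. Pcsk7, a proprotein convertase gene, was at 32.3 to 34.6 CPM in sgCTRL and 34.5 to 39.2 CPM in sgPrdx2 livers (log2 fold change 0.15, adjusted p = 0.44, and -0.23 with total-count scaling).

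Myl9 encodes the regulatory light chain of smooth muscle myosin (chr2:156775420-156781658, plus strand). It was at 20.3, 10.2 and 12.3 CPM in sgCTRL livers and at 7.25, 6.36 and 12.3 CPM in sgPrdx2 livers. The groups overlapped, since sgPrdx2 3.2 matched a control liver. Between the groups the log2 fold change was -0.73 (SE 0.33, adjusted p = 0.215), and -0.39 without sgCTRL 5.1 (adjusted p = 0.525), so less of the value remained without that liver than for Acta2.

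Genes of contraction are known targets of serum response factor (SRF), which binds a sequence called the CArG box. The promoters of Acta2 and Myl9 are shown because these genes stood lower together in sgPrdx2 livers 1.1 and 1.3, and Des, a muscle and stellate cell gene whose levels overlapped, is shown beside them. Each runs from 250 bases before to 50 bases after the start in RefSeq (GRCm38.p6), 5′ to 3′ on the strand of the gene, with CArG boxes in capitals. RefSeq entries were matched for 6 of the 10 genes, the others being Tagln, Pdgfrb, Lum and Dcn.
Acta2, chr19:34255324-34255623, minus strand: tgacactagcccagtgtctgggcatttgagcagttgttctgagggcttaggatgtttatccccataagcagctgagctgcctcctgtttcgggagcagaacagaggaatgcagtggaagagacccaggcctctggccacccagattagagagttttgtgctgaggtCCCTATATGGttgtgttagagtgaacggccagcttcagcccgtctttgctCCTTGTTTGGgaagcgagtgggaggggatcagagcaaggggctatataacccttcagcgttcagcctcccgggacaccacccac
Myl9, chr2:156775214-156775513, plus strand: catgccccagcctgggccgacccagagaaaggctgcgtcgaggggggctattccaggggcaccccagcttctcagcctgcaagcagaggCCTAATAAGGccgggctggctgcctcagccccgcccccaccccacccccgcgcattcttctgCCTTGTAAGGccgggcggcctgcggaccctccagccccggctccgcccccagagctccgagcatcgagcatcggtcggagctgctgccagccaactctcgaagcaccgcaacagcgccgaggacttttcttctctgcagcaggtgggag
Des, chr1:75360042-75360341, plus strand: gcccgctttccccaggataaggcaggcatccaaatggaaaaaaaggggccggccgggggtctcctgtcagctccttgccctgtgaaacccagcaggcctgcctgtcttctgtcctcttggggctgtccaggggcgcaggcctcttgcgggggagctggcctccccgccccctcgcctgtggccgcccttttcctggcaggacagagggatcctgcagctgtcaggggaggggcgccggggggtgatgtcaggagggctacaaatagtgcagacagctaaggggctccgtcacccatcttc

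Both strands were searched. Myl9 holds a full CArG box 161 bases before its start, a form found in 1.63% of 32851 promoters of this length, and a form with 1 C or G in the centre 99 bases before it. Acta2 holds that second form at 84 and at 34 bases before its start, and Lrat holds it at 223 bases. This looser form, searched after the sequences were seen, is in 8.5% of promoters, and either form is in 9.98%. Des, Dpt and Reln hold neither in this window. The MCAT element, CATTCC on either strand, a site of TEAD factors, occurs in Acta2 and Lrat and in 14.7% of all promoters. These matches are letters in a window, and binding was not measured.

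Des encodes desmin, the intermediate filament protein of muscle and of rodent stellate cells. Its level was 38.2, 19.1 and 25.7 CPM in sgCTRL and 22.0, 24.5 and 38.2 CPM in sgPrdx2 livers. The highest liver of each group reached the same level. Its log2 fold change was 0.03, with a 95% CI of -0.64 to 0.70 (adjusted p = 0.965), an interval that leaves room for a change of either sign.

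Pdgfrb encodes the receptor by which platelet-derived growth factor drives stellate cells to divide. Its levels lay close together within each group, at 87.5, 81.9 and 85.6 CPM in sgCTRL and 77.7, 84.9 and 73.2 CPM in sgPrdx2 livers. The log2 fold change was -0.11 (95% CI -0.39 to 0.17, adjusted p = 0.593). The groups overlapped, and the interval does not reach the value of Acta2, although the difference between these genes was not tested.

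Lrat encodes the enzyme that esterifies retinol for storage, the mark of the resting stellate cell. Its level was 19.7, 30.5 and 24.0 CPM in sgCTRL and 17.7, 19.4 and 8.20 CPM in sgPrdx2 livers. The groups were separated by the narrow gap between sgCTRL 5.1 and sgPrdx2 1.3, and sgPrdx2 3.2 was lowest. For Lrat the log2 fold change was -0.71 (SE 0.31, adjusted p = 0.209), and -0.40 without sgPrdx2 3.2.

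Reln encodes reelin, a large secreted glycoprotein that stellate cells make. It was at 55.8, 87.5 and 74.4 CPM in sgCTRL and at 92.9, 89.8 and 59.2 CPM in sgPrdx2 livers. The lowest livers of the groups were sgCTRL 5.1 and sgPrdx2 3.2. Its log2 fold change was 0.15 (95% CI -0.37 to 0.67, adjusted p = 0.702), and -0.20 when libraries were scaled by total counts.

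Dcn and Lum encode decorin and lumican, small leucine-rich proteoglycans that bind collagen fibrils, and Dpt encodes dermatopontin, a matrix protein that binds decorin. Dcn was at 791, 596 and 565 CPM in sgCTRL and 470, 505 and 431 CPM in sgPrdx2 livers, without overlap (log2 fold change -0.47, SE 0.17, adjusted p = 0.149). Lum was at 226, 226 and 192 CPM in sgCTRL and 158, 178 and 146 CPM in sgPrdx2 livers, also without overlap (log2 fold change -0.42, SE 0.14, adjusted p = 0.131). In both genes sgPrdx2 3.2 had the lowest level. Dpt was at 114, 99.2 and 90.4 CPM in sgCTRL and 83.4, 92.2 and 91.5 CPM in sgPrdx2 livers, with overlap (log2 fold change -0.19, SE 0.14, adjusted p = 0.428). Dcn (chr10:97479609-97518143) and Lum (chr10:97565128-97572703) are neighbours 47.0 kb apart on the plus strand, followed by Kera and Epyc, the proteoglycan genes of cornea and cartilage. Kera and Epyc had 0 counts in every liver, where the counting floor of 3 counts stands for 0.0555 to 0.0921 CPM.

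**Figure D2:**
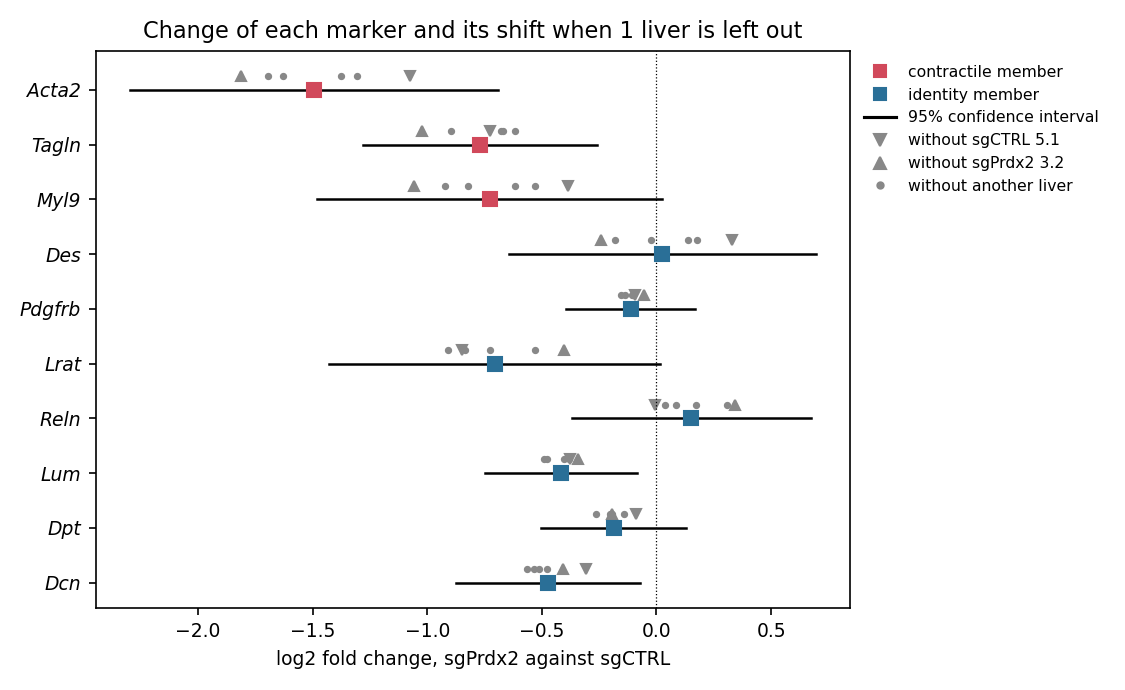
Log2 fold change (sgPrdx2 minus sgCTRL) of the 10 genes, with points for the estimate and lines for the 95% confidence interval from edgeR, and grey points above each line for the value with 1 liver left out. Acta2 lies lowest at -1.49, and those of Des, Pdgfrb and Reln, at 0.03, -0.11 and 0.15, lie nearest to 0. With total-count scaling the values of Des and Reln fall below 0.

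Contraction was set against identity within each liver as the mean log2 CPM of the 3 contractile genes minus that of the 7 identity genes, a value that the scaling of a library hardly touches. It was -1.39, -2.15 and -1.77 in sgCTRL (-1.77 ± 0.38, SD, n = 3) and -2.72, -2.97 and -1.83 in sgPrdx2 livers (-2.51 ± 0.60, SD, n = 3). Livers sgPrdx2 1.1 and 1.3 were below every control, but sgPrdx2 3.2 lay within the range of the controls, so the groups overlapped. In sgPrdx2 3.2 the contractile genes were the highest of their group, and the identity genes other than Des and Dpt the lowest. The contractile genes have 1.16 to 2.20 kb of exon and the identity genes 1.72 (Dpt) to 23.7 kb (Reln). The part of transcript length or RNA quality in this value was not tested. The difference between group means was -0.74, made up of -0.99 for the contractile and -0.25 for the identity genes. No p is given, since the genes were chosen with results known. Without sgPrdx2 3.2 the difference was -1.08, without sgCTRL 5.1 it was -0.55 and without sgPrdx2 1.3 it was -0.51. It was -0.50 without Acta2, so Tagln and Myl9 alone also stood lower against identity genes, and -0.81 with Des, Pdgfrb, Lrat and Reln as the only identity genes.

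**Figure D3:**
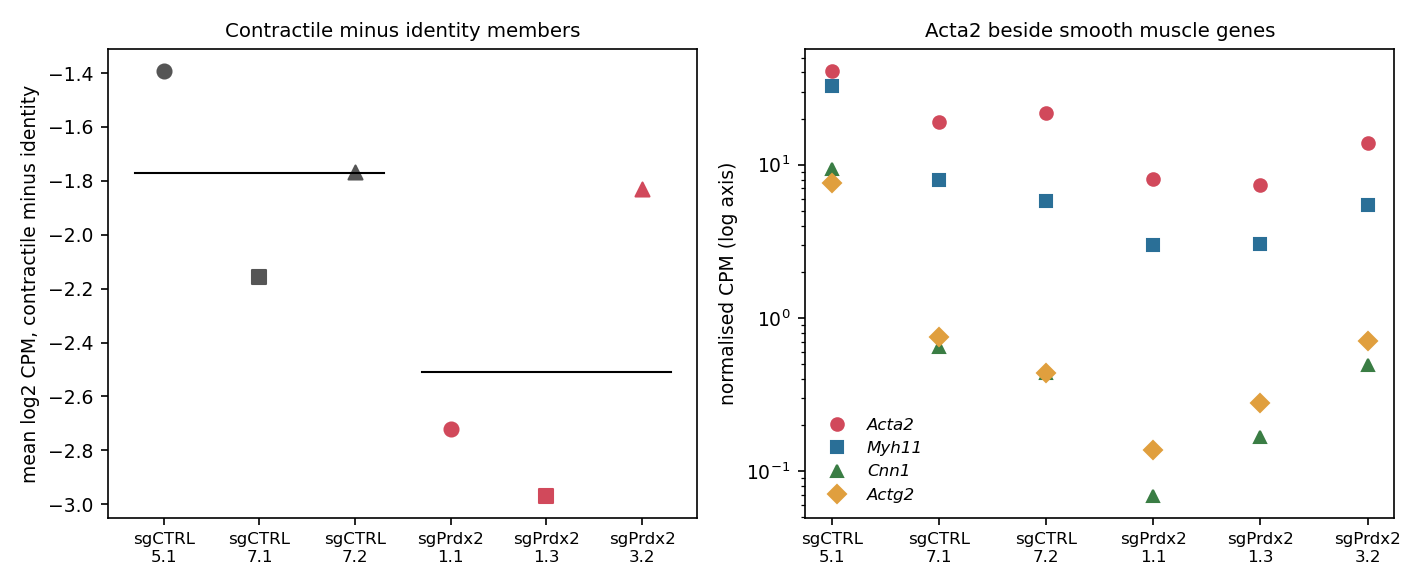
Left, mean log2 CPM of contractile minus identity genes in each liver, with lines for group means. Right, normalised CPM of Acta2, Myh11, Cnn1 and Actg2 in each liver on a log axis, all highest in sgCTRL 5.1. The difference was -2.97 to -1.83 in sgPrdx2 and -2.15 to -1.39 in sgCTRL livers, and sgPrdx2 3.2 lies among the controls.

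Per kilobase of exon, matrix genes led in sgCTRL livers. Dcn was at 111 ± 21.0 and Lum at 87.6 ± 8.15 normalised RPKM (SD, n = 3), each gene's CPM over its exon length, followed by Dpt at 58.8 ± 7.03 and Tagln at 27.8 ± 4.46. Next came Pdgfrb at 15.5 ± 0.51, Acta2 at 12.5 ± 5.47, Myl9 at 12.3 ± 4.61 and Des at 7.38 ± 2.59, then Lrat at 4.62 ± 1.02 and Reln at 3.06 ± 0.67. In sgCTRL livers each gene from Dcn down to Tagln lay wholly above the next in this order, and from Pdgfrb to Reln each gene overlapped the next. In sgPrdx2 livers Acta2 was at 4.44 normalised RPKM, under Myl9 at 7.44 and Des at 7.52.

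**Figure D4:**
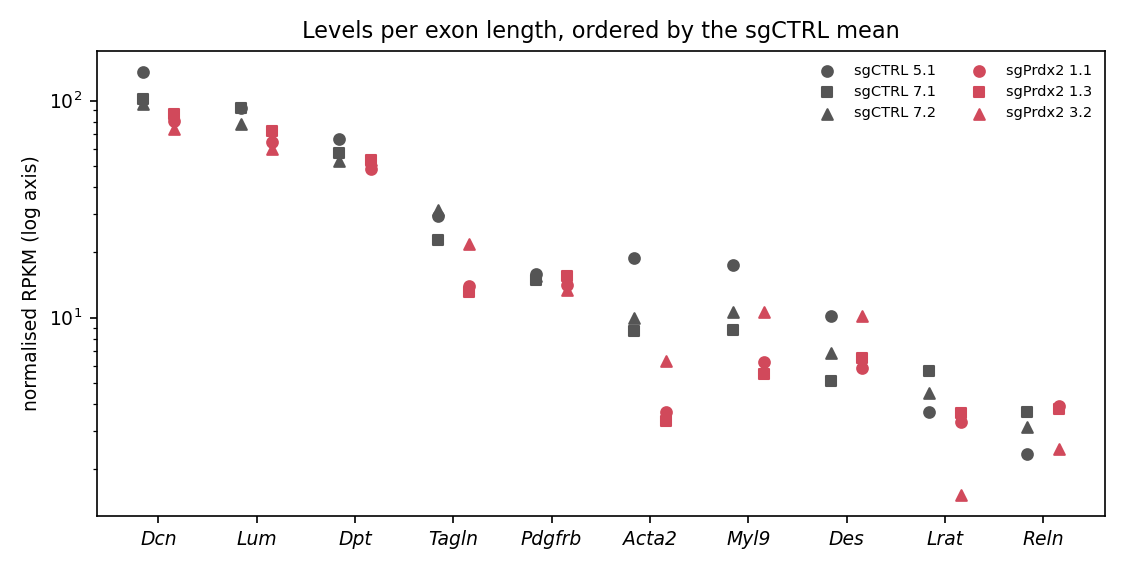
Normalised RPKM of the 10 genes per liver on a log axis, in the order of their sgCTRL means. Points are livers. Dcn leads at 111 and Reln is last at 3.06 in the mean of sgCTRL livers.

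Genes of the same pathways were read from lists, by the roles of their members. In the contractile apparatus, none of 14 tested genes was called. Of these, 12 had a log2 fold change below 0 (median -0.51), and 8 were lower at an unadjusted p under 0.05, where 11.9% of all genes were. Flna, filamin A, which cross-links actin, came nearest, at 298 to 312 CPM in sgCTRL and 189 to 218 CPM in sgPrdx2 livers (log2 fold change -0.59, adjusted p = 0.0526). Srf and its cofactors Mkl1 and Mkl2 had values of -0.15, -0.34 and -0.46, none called (adjusted p = 0.442, 0.119 and 0.245). All were lower without overlap, a pattern of 17.5% of all genes tested. Myocd, the muscle cofactor of SRF, had at most 11 counts in any liver and was not tested.

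Among genes of resting stellate cells, 8 of 17 had a log2 fold change below 0 (median 0.04, or -0.32 with total-count scaling) and none was called. Rgs5, a pericyte regulator of G-protein signalling, was at 73.9 to 87.7 CPM in sgCTRL and 44.5 to 56.3 CPM in sgPrdx2 livers (-0.62, adjusted p = 0.0574). Nes, which encodes nestin and is also on the intermediate filament list, is not read here as a mark of rest. Its value was -0.72 (adjusted p = 0.0583), and that of Pth1r, the receptor of parathyroid hormone, was 0.49 (adjusted p = 0.0913). In the retinoid list, to which Lrat is closest in role, 3 of 11 genes were below 0 (median 0.32, or -0.055 with total-count scaling) and none was called. Rbp4, the serum carrier of retinol that hepatocytes make, was at 2152 to 2326 CPM in sgCTRL and 3367 to 5016 CPM in sgPrdx2 livers (0.84, adjusted p = 0.0584). Cyp26a1, which breaks down retinoic acid, was at 4.87 to 13.9 CPM and 17.9 to 37.7 CPM (1.66, adjusted p = 0.066). For reelin's receptors and adaptor, Lrp8, Vldlr and Dab1, the values were -0.85, -0.21 and -0.02, none called.

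In the PDGF list, 5 of 6 genes were below 0 (median -0.51) and 1 was called lower, where 1.54% of all genes were. Pdgfb, a ligand of the Pdgfrb receptor made by endothelial cells and platelets, was at 18.9 to 23.3 CPM in sgCTRL and 12.0 to 15.0 CPM in sgPrdx2 livers and fell by 0.67 on the log2 scale (SE 0.14, adjusted p = 0.0491). Its receptor Pdgfrb had -0.11 (adjusted p = 0.593) with overlapping levels, and the difference between ligand and receptor was not tested. Among 7 tested proteoglycans, 5 were below 0 (median -0.31) and none was called, as for 12 portal fibroblast and mesothelial genes (11 below 0, median -0.50) and 6 intermediate filament genes (6 below 0, median -0.34).

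Of 7 fibrogenic genes, all were below 0 (median -0.63) and 1, Tgfb1, was called lower. Of all 17032 genes tested, 8802 were below 0 and 1.54% were called lower. Tgfb1, the cytokine that drives collagen synthesis, was at 38.7 to 44.8 CPM in sgCTRL and 25.8 to 30.6 CPM in sgPrdx2 livers (-0.61, SE 0.12, adjusted p = 0.0466). Col1a1 had -0.50 (adjusted p = 0.156), Col1a2 -0.67 (adjusted p = 0.0612), Lox -1.07 (adjusted p = 0.079) and Timp1 -0.27 (adjusted p = 0.493). In larger groups of mice the study measured Acta2, Col1a, Tgfb1 and Timp1 by qRT-PCR, and collagen area and hydroxyproline. From these it reports only a minor effect on fibrosis. Of 7 vascular smooth muscle and pericyte genes, 6 were below 0 (median -0.62), and Notch3, a receptor of mural cells, was called, at 4.92 to 6.47 CPM in sgCTRL and 2.49 to 3.55 CPM in sgPrdx2 livers (-1.0, SE 0.21, adjusted p = 0.0471). With any 1 of the 6 livers left out, Pdgfb and Notch3 were no longer called, and Tgfb1 was called without sgPrdx2 3.2 (-0.67, adjusted p = 0.0385) and in no other such fit. Without sgCTRL 5.1, sgCTRL 7.2, sgPrdx2 1.1 or sgPrdx2 1.3 no gene at all was called.

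Markers of other liver cells moved with the groups as well. Besides hepatocyte markers, with a median log2 fold change of 0.96, macrophage markers had 2 of 8 called lower (median -0.63), endothelial markers 1 of 8, Pecam1 (median -0.56), lymphocyte markers 1 of 8, Cd8a (median -0.28), and cholangiocyte markers 0 of 7 (median -0.33). Of all genes tested, 1.54% were called lower. With any 1 liver left out, Cd8a was no longer called (lowest adjusted p = 0.062). The median of the contractile genes (-0.77) was below and that of the identity genes (-0.19) above those of macrophage, endothelial, lymphocyte and cholangiocyte markers. The part of cell composition in the values of the 10 genes was not tested.

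**Figure D5:**
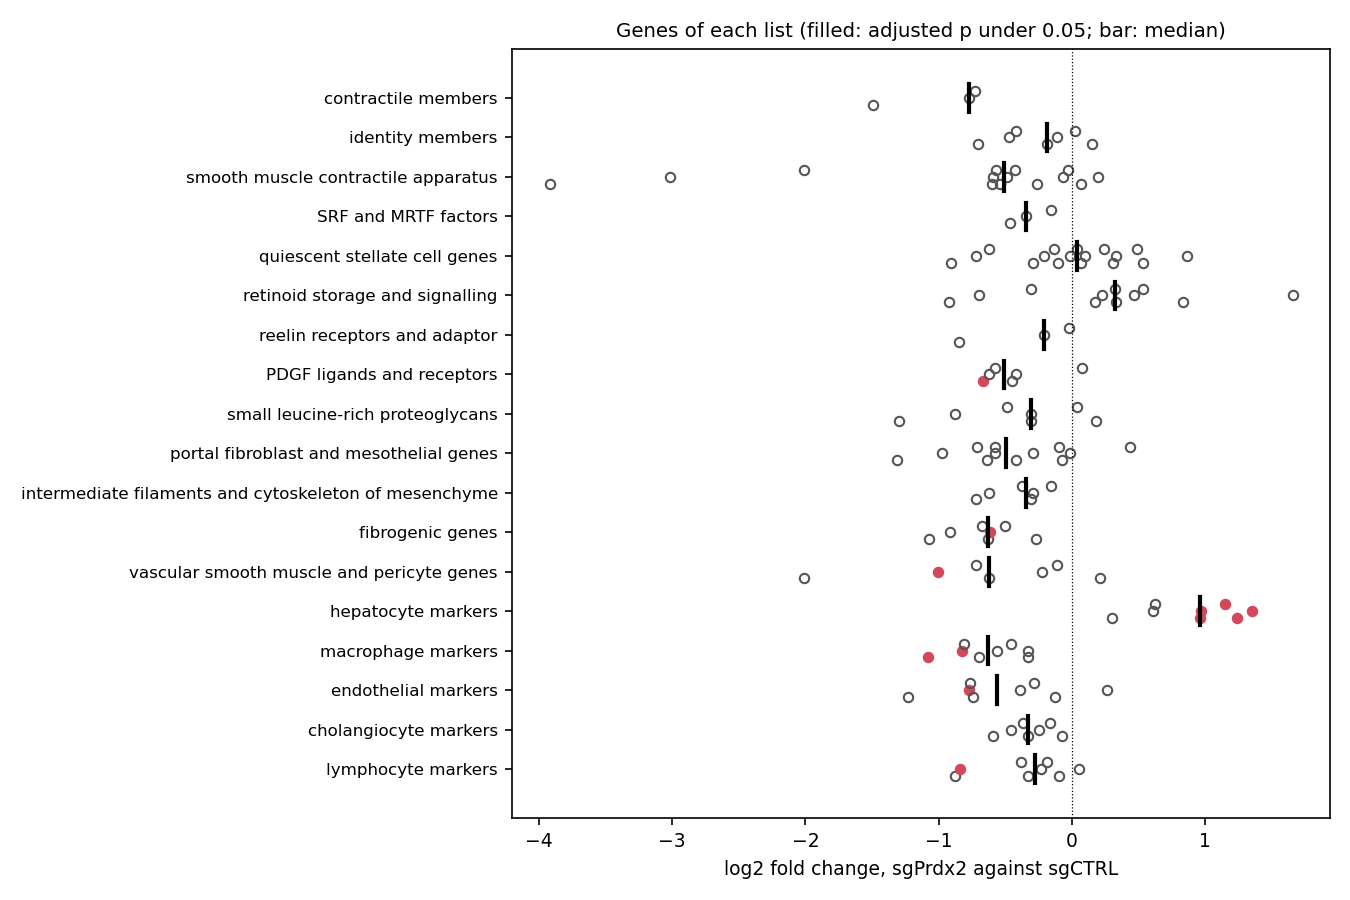
Log2 fold change (sgPrdx2 minus sgCTRL) of each tested gene by list, with each point a gene and each bar a list median. Hepatocyte markers lie above 0 (median 0.96), fibrogenic genes below it (median -0.63) and genes of resting stellate cells on both sides (median 0.04, and -0.32 with total-count scaling). Filled points are called genes.

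Likeness across livers was measured against 14123 genes that averaged 1 CPM or more, as the root mean square distance between log2 CPM centred per gene, over 6 livers. Nearest to Acta2 were Aoc1 at 0.20, Lhx6 at 0.22 and Serpinb9b at 0.26 log2 units. Nearest to Dcn was Lama5 at 0.038 and nearest to Lrat was Fat1 at 0.064, with the next 2 within 0.050 and 0.093. Among the 10 themselves, the closest pairs were Pdgfrb with Dpt at 0.119 and the neighbours Lum and Dcn at 0.122. The distance is not scaled by spread, so it tends to be larger for genes that vary more between livers. Levels ran from 7.36 to 41.1 CPM for Acta2 and from 431 to 791 CPM for Dcn. Distances of different members are therefore not compared.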

How the data were processed

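Whole-liver RNA-Seq of 6 mice was analysed, with groups from the sample labels. The authors deposited counts of reads per gene for 52459 genes as whole numbers without normalization. The submitters' processing notes name HISAT2, HTSeq, DESeq2 and GRCm38, and the annotation and strand setting are not given in the sources used here. A table of the authors' own DESeq2 comparison (means, fold changes and p-values) was not used. The test was edgeR's quasi-likelihood test (edgeR 4.0.16, R 4.3.3): filterByExpr (minimum count 10), TMM, glmQLFit and glmQLFTest on 3 against 3 livers with no covariate, Benjamini-Hochberg adjustment over all 17032 genes and a threshold of 0.05. The SE is the fold change over the square root of F. Scores used log2 CPM with a prior count of 2. The fit was also run on simulated counts with independent genes and no outlying liver, so that run does not bear on how it performs on these livers. No 2 livers had counts within sampling noise (chi-square at least 34.7 per degree of freedom), and counting floors cover counting error only. Labels name separate mice. Exon lengths and overlaps came from GENCODE on GRCm38.

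The members and lists were chosen with earlier results of these data known. Named genes were Prdx2, the members, up to 3 tested genes of smallest p per list, Col1a1, Tgfb1, Timp1, and the genes nearest to Acta2, Lrat and Dcn, and further genes are said to be chosen after their values were seen. Alternatives were RLE, upper-quartile and total-count scaling, DESeq2 1.42.0, a looser filter (none) and a stricter one (10 counts or more in all livers), each liver left out, and other forms of the contractile score.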

Additional observations from a re-analysis of the deposited data

How the results depend on the processing

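Across all genes, 567 calls became 3247 with total-count scaling, 2052 with DESeq2, 1128 without the filter and 0 to 619 when 1 liver was left out (0 without sgCTRL 5.1, sgCTRL 7.2, sgPrdx2 1.1 or sgPrdx2 1.3, 394 without sgCTRL 7.1), where 3114 to 4436 genes had an unadjusted p under 0.05. Of the 10 members, 0 were called in the reported fit, 6 with total-count scaling (Acta2, Tagln, Myl9, Lum, Dpt and Dcn), 2 with DESeq2, 2 without the filter and 2 without both sgCTRL 5.1 and sgPrdx2 3.2 (in each case Acta2 and Tagln), and 0 to 2 with 1 liver left out, the 2 being Acta2 and Tagln without sgPrdx2 3.2. Leaving out 1 liver moved Acta2 between -1.81 and -1.08 on the log2 scale (adjusted p 0.0468 to 0.171). Members with the smallest values changed sign: Des was -0.37 with total-count scaling and -0.24 to 0.33 with 1 liver left out (-0.18 without sgCTRL 7.1, -0.024 without sgCTRL 7.2), and Reln -0.20 and -0.0056 to 0.34. So did Prdx2 (-0.0046 with upper-quartile scaling, -0.37 with total counts, -0.0050 without the filter, -0.17 to 0.13 with 1 liver left out, among these -0.052 without sgCTRL 5.1 and -0.0081 without sgCTRL 7.1, -0.24 without both livers), Actc1 (0.0051 with RLE, -0.32 to 0.44 with 1 left out, 0.12 without sgPrdx2 1.1), Dab1 (-0.12 to 0.079 with 1 left out, 0.0083 without sgPrdx2 1.3, 0.070 without sgPrdx2 3.2, and 0.16 without both), Vldlr (-0.47 to 0.11 with 1 left out, 0.070 without sgPrdx2 3.2, and 0.37 without both) and Tnnt3 (-0.033 with total counts). The contractile minus identity difference kept its sign in all its alternatives, at -1.08 to -0.50. No paired analysis was possible because the groups share no replicate numbers. The causes of these shifts were not tested, and 3 livers a group limit the precision.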
